A study of Drosophila melanogaster with 3 samples.

Results

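Sites of the fly Sox protein D (Dichaete) were mapped by ChIP-seq, and the regions described here are the summits that lie at divergent promoters. A divergent promoter is the stretch between a pair of neighbouring genes that are transcribed away from each other. A summit was taken as a member when it lay within 500 bp of start sites of 2 different protein-coding genes on opposite strands, with the minus-strand start at the lower coordinate and the starts at most 1000 bp apart. The rule used position and annotation only, and it kept 575 of the 5047 summits of the IDR list, the regions that the authors kept after comparing replicates for reproducibility. The embryos were of both sexes, aged 0 to 14 hours, from a transgenic line in which D carries GFP at its C terminus, and chromatin was sheared by sonication and precipitated with an anti-GFP antibody. There were 3 biological replicates in 1 group and no second condition, so every comparison below is between classes of regions. Whole embryos were pooled, so the cells that gave a peak are not known, only the tagged protein was read, and the genotype of the control alignment is not given in the sources used here.

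D is an HMG-domain protein of the SoxB group with known roles in segmentation and in the development of the nervous system and the ventral midline. Closely spaced divergent genes are common in the compact fly genome. Many of them are housekeeping genes, and their promoters are known for the DNA replication-related element (DRE) bound by DREF, for sites of the insulator protein BEAF-32 and for Motif 1, bound by M1BP, more than for a TATA box.

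The summits fell into 3 classes: 575 at divergent promoters, 1179 at other promoters (within 500 bp of a protein-coding start, not members) and 3293 away from start sites. Each of the replicate and pooled lists held 30000 regions, and the IDR list was the upper end of the pooled list by signal value, the authors' measure of peak height on a scale that is not stated. Depth is unknown. Replicate 1 stood apart from the others: among all IDR summits, 50% had a summit of replicate 1 within 200 bp among its highest 5047, against 85.2% for replicate 2 and 83.9% for replicate 3. The main recovery, share and position results are therefore also given without it.

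The sequences between the start sites show what these regions look like. Members named by height, by rank in the replicates or from a gene list were considered. Their gap had to be 150 to 300 bp, with no annotated exon between the starts. Of these members, 5 are shown: the 3 that ranked best in all 3 replicates, and the highest others with a Sox core or a DRE. They are plus-strand sequence of Release 6 (dm6) from RefSeq, running from the base after the minus-strand start to the base before the plus-strand start. Capitals mark matches on either strand to any of 12 motifs, whose letters are given with the motif counts.
Art3/mRpS10, chr3R:15229409-15229664: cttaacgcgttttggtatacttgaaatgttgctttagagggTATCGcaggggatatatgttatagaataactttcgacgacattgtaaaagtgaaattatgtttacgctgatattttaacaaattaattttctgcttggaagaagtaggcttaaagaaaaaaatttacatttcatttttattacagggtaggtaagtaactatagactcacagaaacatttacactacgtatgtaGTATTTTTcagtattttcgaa
Tcs5/CHMP2B, chr3L:5139396-5139618: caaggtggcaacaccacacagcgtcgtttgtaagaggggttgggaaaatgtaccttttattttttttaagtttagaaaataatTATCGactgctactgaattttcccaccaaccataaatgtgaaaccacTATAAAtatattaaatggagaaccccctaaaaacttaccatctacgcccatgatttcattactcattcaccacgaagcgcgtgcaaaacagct
CG13390/CG17294, chr2L:8376798-8377034: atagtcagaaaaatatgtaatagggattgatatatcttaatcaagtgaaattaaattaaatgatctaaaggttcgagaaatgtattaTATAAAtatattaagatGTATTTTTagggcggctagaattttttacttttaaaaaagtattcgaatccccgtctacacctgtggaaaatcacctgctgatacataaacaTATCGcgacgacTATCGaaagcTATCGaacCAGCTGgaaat
Lon/PIG-F, chr3L:19612200-19612454: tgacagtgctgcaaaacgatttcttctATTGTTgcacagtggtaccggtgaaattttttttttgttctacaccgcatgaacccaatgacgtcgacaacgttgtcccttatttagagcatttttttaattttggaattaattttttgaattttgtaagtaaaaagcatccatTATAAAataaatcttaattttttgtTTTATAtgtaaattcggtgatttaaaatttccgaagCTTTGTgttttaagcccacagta
Atat/Shc, chr3L:9426759-9427009: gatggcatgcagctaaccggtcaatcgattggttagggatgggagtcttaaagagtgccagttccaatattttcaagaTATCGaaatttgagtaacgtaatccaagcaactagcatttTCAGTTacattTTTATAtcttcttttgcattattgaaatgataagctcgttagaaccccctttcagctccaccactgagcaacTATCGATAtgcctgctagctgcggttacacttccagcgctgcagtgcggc
The Art3/mRpS10 stretch held a BEAF-32 core and a core promoter motif 6. The Tcs5/CHMP2B stretch held a BEAF-32 core and a TATA match, and the CG13390/CG17294 stretch held 3 BEAF-32 cores, an E-box, a motif 6 and a TATA match. The Lon/PIG-F stretch held 1 Sox core, 1 match to its variant and 2 TATA matches. The Atat/Shc stretch held 1 DRE, a TATA match and an Initiator match. Its 3 BEAF-32 core matches include 2 within the DRE itself, which reads the same on both strands. The G and C content was 30.1% for Art3/mRpS10, 38.1% for Tcs5/CHMP2B, 30.8% for CG13390/CG17294, 30.6% for Lon/PIG-F and 43.0% for Atat/Shc. The summits sat near the middle of these stretches, at base 126 of 256 for Art3/mRpS10, base 105 of 223 for Tcs5/CHMP2B and base 129 of 251 for Atat/Shc. Of the 23 named members that met these limits, 0 lacked every motif and 0 held a Motif 1 core in the stretch. Over all 575 members, 7.48% of the 201-bp windows around the summit lacked every motif and 3.83% held a Motif 1 core. Both shares are low, so 0 of 23 says little.

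Divergent promoters made up 11.4% of the IDR summits, while the positions that satisfy the rule cover 1.21% of the bases of the 6 chromosome arms. The same held at the upper end of each replicate's own list. Of the highest 5047 summits, 4.10% in replicate 1, 11.4% in replicate 2 and 10.6% in replicate 3 lay at divergent promoters, all above the share of bases. The mean was 8.71 ± 4.01% (SD, n = 3), and it exceeded the share of bases by 7.49 percentage points. The exact two-sided sign-flip permutation test gave p = 0.25, the smallest p that 3 replicates allow. Without replicate 1 the mean was 11.0%. Over the whole lists the share was 6.12% in replicate 2 and 5.83% in replicate 3. In replicate 1 it was 0.880%, below the share of bases, so its direction depended on the cutoff. Summits within 500 bp of any protein-coding start made up 18.7%, 37.5% and 36.6% of the same lists in replicates 1, 2 and 3. The share of bases near other promoters was not computed, so the excess may not be particular to divergent promoters.

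The lists differed in where along the ranks these summits stood. In replicate 1, 18.2% of its highest 500 summits were at divergent promoters (95% exact interval 14.9 to 21.9%, counting error only). Its share was 8.0% at ranks 501 to 1000, 3.9% at ranks 1001 to 2000, 1.21% at ranks 2001 to 5047 and 0.170% over its last 10000 ranks, below the share of bases. In replicate 2 the share was 12% in the highest 500, 11.2% at ranks 2001 to 5047 and 3.13% over the last 10000. Replicate 3 had 10.4%, 10.2% and 2.92% at the same ranks. Divergent promoters thus took up a larger share of the very highest summits in replicate 1 than in the others and a smaller share of all later ranks.

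**Figure D1:**
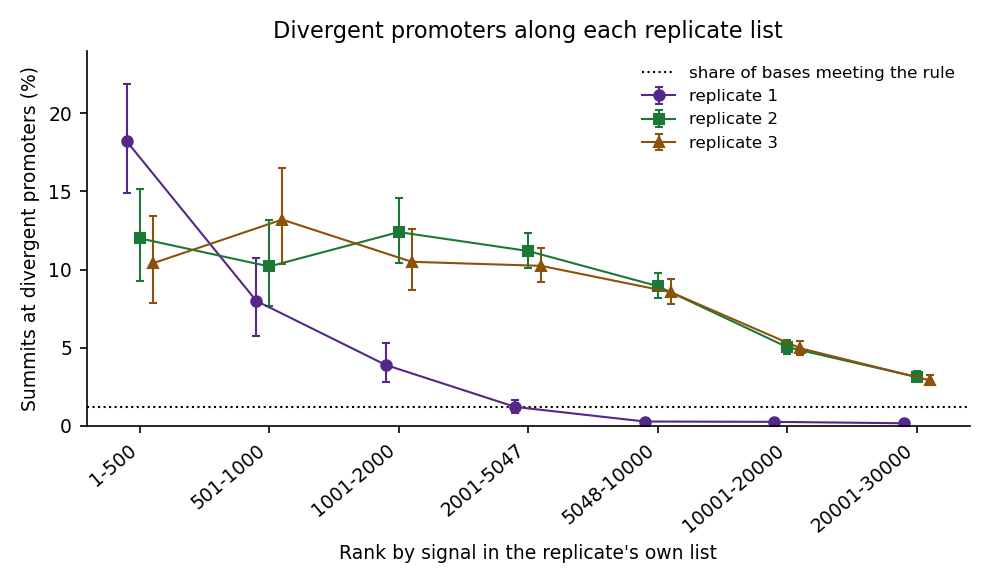
Share of summits at divergent promoters (y axis, %) along the ranks of each replicate's own list of 30000 regions by signal (x axis, highest on the left), with 95% exact intervals, and the share of bases that meets the rule as a dotted line. Replicate 1 started at 18.2% and ended at 0.170%, while replicates 2 and 3 stayed above 10% down to rank 5047.

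The highest member, with a pooled signal value of 3107, lay on 3L at 22878687 to 22879122 beside Chro, which encodes the chromodomain protein Chromator, and Ssl1, a subunit of the general transcription factor TFIIH. It ranked 7 in replicate 2 and 16 in replicate 3, and no summit lay within 200 bp of it in the whole list of replicate 1. The next, with 2781, lay on 3R at 15229322 to 15229745 between Art3, an arginine methyltransferase, and mRpS10, a protein of the small mitochondrial ribosomal subunit. Its signal values were 876 in replicate 1, 961 in replicate 2 and 957 in replicate 3, and its ranks in those lists were 7, 15 and 23. This was the best worst rank of all members. Tcs5/CHMP2B followed, beside a kinase of tRNA modification and an ESCRT-III subunit, with a pooled signal of 2288 and ranks 10, 40 and 45. Both Art3/mRpS10 and Tcs5/CHMP2B thus stood near the top of the list in every replicate.

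Further members that ranked high in all 3 replicates lay at Lon/PIG-F, a mitochondrial protease and a factor of GPI anchor synthesis, with ranks 13, 87 and 94, and at eIF4EHP/CG18428, with ranks 98, 59 and 65. eIF4EHP is a cap-binding repressor of translation in the embryo. Hrd3/PTPMT1, of protein degradation at the endoplasmic reticulum and of a mitochondrial phosphatase, ranked 30, 109 and 104. Pax/Alp12, with the focal adhesion protein paxillin, ranked 109, 93 and 75. Also among the 10 best in all replicates were CG13390/CG17294, CG11309/CG7632 and tank/CG12194, with worst ranks of 64, 86 and 133.

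A second set of high members had no summit within 200 bp anywhere in the list of replicate 1. Besides Chro/Ssl1, the highest were mRpS23/CenG1A with a pooled signal of 2175, Fbw5/CG9147 with 2027 and CG3437/CG3552 with 1645. Mkk4/SLIRP2, with a kinase of the JNK pathway, had 1557, Atat/Shc, with the tubulin acetyltransferase and a receptor adaptor, had 1394, and Cp190/CG4338 had 1248. Cp190 encodes a cofactor shared by several insulator proteins. Ns2/POSH had 1226, fws/Lamtor3 had 1224 and Mnat9/CG1792 had 1176. In replicates 2 and 3 all 10 were ranked between 7 and 336.

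This split ran through the whole class. The IDR list is the upper end of the pooled list, which was called on these same replicates together. Recovery in a replicate is therefore no independent check, and the selection fixes it in part. Summits at divergent promoters were recovered among the highest 5047 of replicate 1 in 28.5% of cases, against 43.3% at other promoters and 56.1% away from start sites. In replicate 2 the shares were 84.7% at divergent promoters, 89.7% at other promoters and 83.7% away from start sites. In replicate 3 they were 77.2% at divergent promoters, 87.0% at other promoters and 84.0% away from start sites. Recovery among the highest 5047 was thus below that at other promoters in each of the 3 replicates, by 9.86 ± 4.93 percentage points on average (SD, n = 3), with p = 0.25 in the exact sign-flip permutation test, the smallest it can give. Without replicate 1 the mean difference was -7.38 ± 3.43 points. The direction in each replicate depended on that limit: in the whole lists, replicate 2 held 99.3% of divergent and 98.3% of other promoter summits, replicate 3 held 97.9% of divergent and 98.2% of other ones, and replicate 1 held 29.4% of divergent and 46.6% of other ones. The mean difference was then -5.52 ± 10.2 points (n = 3, p = 0.75, exact test). The difference from summits away from start sites was -11.1 ± 14.8 points (p = 0.5, same exact test) and was positive in replicate 2. In all 3 replicates, 126 of 575 members were recovered, or 21.9% (18.6 to 25.5%), against 36.6% at other promoters and 38.5% of all IDR summits. Leaving replicate 1 aside, 69.7% of members were recovered in both other replicates, against 80.7% at other promoters and 73.7% away from start sites. The largest single group, 275 members or 47.8%, had a counterpart among the highest summits of both other replicates but lacked one in replicate 1. The same pattern was found for 44.1% of summits at other promoters, 31.7% away from start sites and 36.5% of all IDR summits.

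Recovery in replicate 1 went with height. It was 50.9% for members in the highest quartile of the IDR list by signal and 13.4% for those in the lowest. The corresponding shares at other promoters were 66.2% and 16.5%, and away from start sites 68.8% and 40.7%. All IDR summits come from the upper end of the pooled list, so signal can only be compared within it. There, members were not low. Their median signal was 338 (lowest 188.5, highest 3107), against 348 at other promoters and 296 away from start sites. Among the summits that had a match, the median percentile of signal in the replicate's own list was 98.4 in replicate 1, 91.5 in replicate 2 and 91.0 in replicate 3 at divergent promoters. It was 97.1, 92.9 and 92.9 at other promoters. The mean difference of -0.62 ± 1.74 was within the spread between replicates (n = 3, p = 0.5, exact sign-flip permutation test), and in replicate 1 it covers only the 169 members with a match. Replicate 1 alone was positive, and without it the mean was -1.62 ± 0.28 (n = 2), for which the smallest p of the exact test is 0.5. Between replicates 2 and 3 the signal of 560 members matched in both had a Spearman rho of 0.78. Over the 167 members matched in replicates 1 and 2 rho was 0.81, as a description of members within libraries.

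**Figure D2:**
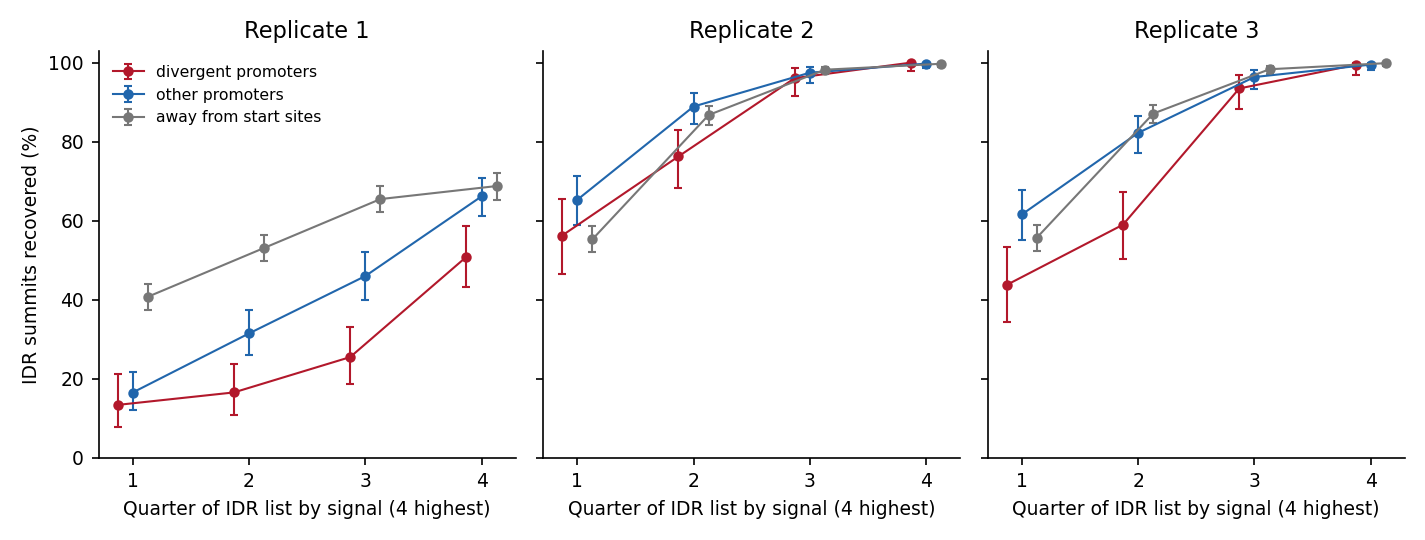
Share of IDR summits recovered within 200 bp among the highest 5047 of each replicate (y axis, %) by quartile of the pooled signal (x axis), with 95% exact intervals, for divergent promoters, other promoters and summits away from start sites. In replicate 1 the highest quartile was recovered in 50.9% at divergent promoters, 66.2% at other promoters and 68.8% away from start sites, while in replicates 2 and 3 the 3 classes were all above 99% in the highest quartile.

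Seen from the genes, most divergent promoters had no IDR summit. The annotation holds 2667 divergent gene pairs by the same gap rule, made up of 5052 of 13945 protein-coding genes. Of these pairs, 591 or 22.2% had an IDR summit that met the rule (exact interval 20.6 to 23.8%), and another 579 had one only in the longer pooled list. By the highest 5047 summits of each replicate, 8.29% of the pairs were bound in replicate 1, 21.9% in replicate 2 and 20.1% in replicate 3. Counting only IDR summits recovered in both replicates 2 and 3, the share was 15.6%. A summit within 500 bp of a start of their own was found for 26.0% of genes in divergent pairs, against 9.18% of genes outside such pairs. A single summit counts for both genes of a pair, so these 2 shares are not built from the same number of summits per gene. Most summits served 1 pair (542 of 575) and 30 served 2. One summit on 3R at 21365254 to 21365558 served 21 pairs among the clustered pre-mod(mdg4) genes, which encode alternative ends of mod(mdg4) transcripts. With those genes left out, an alternative added after seeing the data, 21.7% of pairs were bound. In 39 bound pairs there were 2 summits, and none had 3 or more.

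The share of pairs with a summit depended on the gap. It was 17.2% for gaps of 1 to 100 bp, 19.9% for 101 to 200, 33.8% for 201 to 300 and 35.0% for 301 to 400. Wider pairs had summits in 22.8% of cases at 401 to 500 bp, 16.0% at 501 to 700 and 1.29% at 701 to 1000. All 3 replicates had their highest share at 201 to 400 bp, with 11.8% and 14.2% for the classes of 201 to 300 and 301 to 400 in replicate 1. The rule itself leaves less room in wide gaps, since a summit must reach both starts. Counted per 100 kb of bases that the rule allows, there were 19.3 summits at 1 to 100 bp, 21.2 at 101 to 200, 45.8 at 201 to 300, 55.1 at 301 to 400, 47.8 at 401 to 500, 42.8 at 501 to 700 and 9.13 at 701 to 1000. By density, too, pairs with gaps of up to 200 bp had fewer summits than pairs of 201 to 700 bp, while the classes from 201 to 700 bp lay closer together than their shares did. The median gap was 288 bp for the 591 bound pairs, against 311 bp for the 2076 pairs without an IDR summit. Since the rule leaves less room in wide gaps, part of this difference may be built in. For the 575 members, each with its narrowest pair, the median was 290 bp. The narrowest member gap was 6 bp, at CG7246/HP1b on X with a signal of 257. The widest was 784 bp, at Jheh3/CG43069, with a signal of 205.5. At the edge of the distance rule, 19 summits had their farther start 451 to 500 bp away, with a median signal of 248. The 16 just outside, at 501 to 550 bp, had a median of 370.5.

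**Figure D3:**
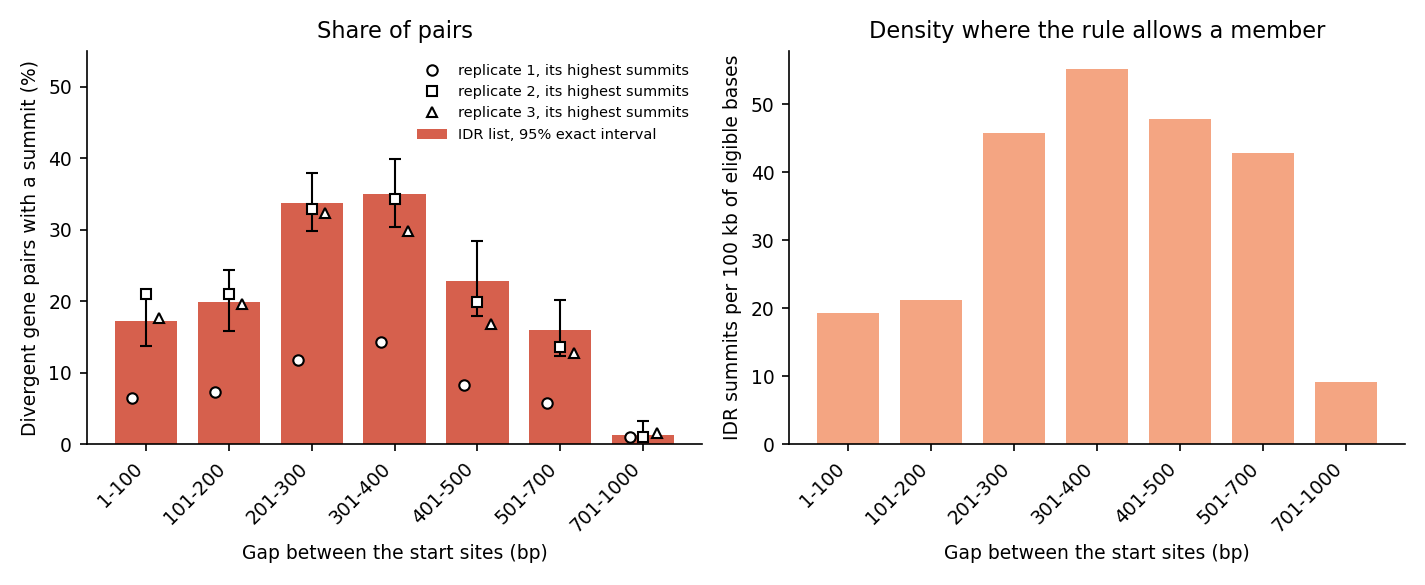
Left, share of divergent gene pairs with a summit (y axis, %) by gap (x axis, bp), as bars with 95% exact intervals for the IDR list and symbols for the highest 5047 summits of each replicate. Right, IDR summits per 100 kb of bases that the rule allows. The share was highest at 201 to 400 bp, 33.8 and 35.0%, and the density was highest at 301 to 400 bp, 55.1 per 100 kb.

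Most summits sat nearer to the middle of the gap than to the limits of the rule, to a degree that varied with the gap. In 435 of 575 members, 75.7% (71.9 to 79.1%), the summit lay between the start sites. The remaining 72 lay inside the minus-strand gene and 68 inside the plus-strand gene. The rule fixes part of the share between the starts, since above a gap of 500 bp it allows no other position. This holds for 61 members with gaps of 501 to 700 bp and 4 of 701 to 1000. With gaps up to 500 bp only, the share was 72.55%. The share expected from the allowed positions was not computed. The median distance was 63 bp from the middle of the gap and 105 bp from the nearer start. Of all members, 83.1% were nearer to the middle than 50% of the distance the rule would have allowed at their gap. The plus-strand start was the nearer one in 53.2% (49.0 to 57.4%). In gaps of 201 to 300 bp, 88.1% of summits were between the starts at a median of 34.5 bp from the middle. In gaps of 1 to 100 bp only 9.33% were between them, and the median distance from the middle was 128 bp. Most summits of the narrowest pairs thus lay beyond one of the starts. In gaps of 501 to 700 bp the median distance from the middle was 95.5 bp. There, 50% of the distance allowed was 111 bp in the median, so these summits were little centred. The share between the starts was 75.3% among the 401 members recovered in both other replicates and 76.2% among the 164 recovered in replicate 1.

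**Figure D4:**
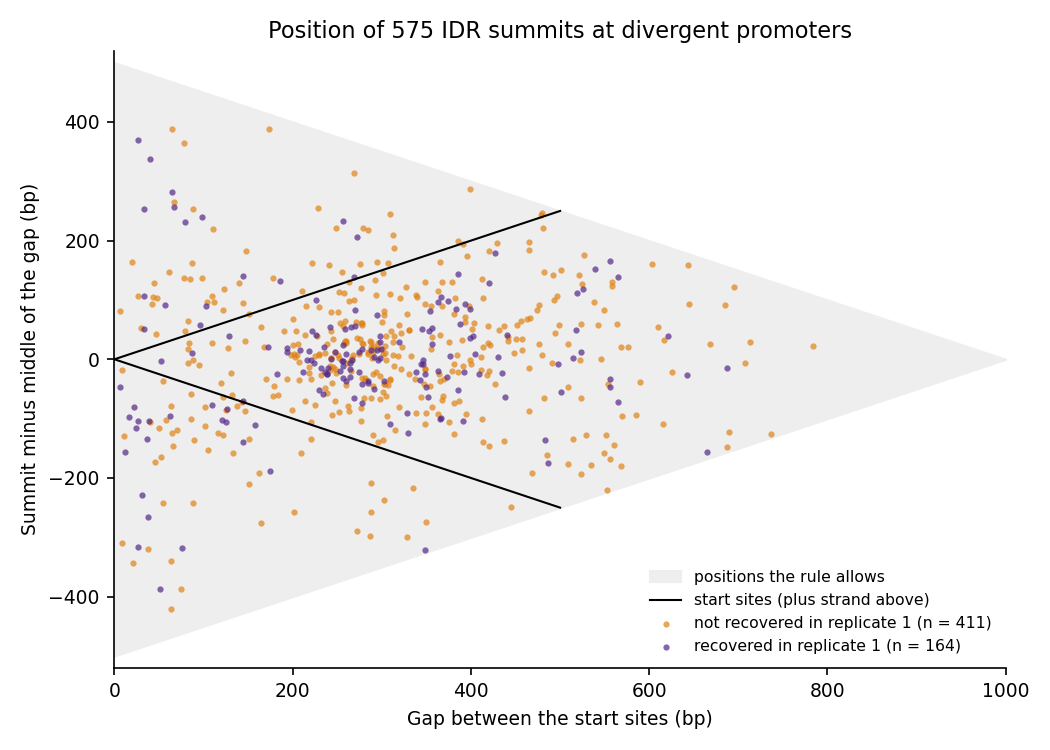
Distance of each of 575 summits from the middle of the gap (y axis, bp, positive towards the plus-strand gene) against the gap (x axis, bp), split by recovery in replicate 1 (164 recovered, 411 not). Lines mark the start sites and grey the positions the rule allows; from about 200 bp most points lie between the lines, and both sets of points overlap throughout.

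The sequence under the summits was rich in A and T. The median G and C content of the 201 bp around the summit was 31.8% at divergent promoters, against 34.8% both at other promoters and away from start sites. Motifs were searched on both strands in that window. The same window was read at 19252 protein-coding start sites and at the middle of the 2076 pairs without an IDR summit. These pairs are called unbound below, though 579 of them had a summit in the longer pooled list. A match is a run of letters and not a shown binding site, and base content differs between the classes, so its part in these shares was not tested.

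The Sox core AACAAT was found in 27.5% of member windows (23.9 to 31.3%), against 23.2% at other promoters, 26.2% away from start sites, 26.2% at middles of unbound pairs and 20.3% at start sites overall. At 1000 bp to either side of the member summits it was found in 13.7% and 14.3%. Its interval at members overlapped those of unbound pairs and of both other classes of summit. The variant ACAAAG was found in 13.0% of members, against 15.3% at other promoters, 17.2% away from start sites and 12.6% at start sites. At 1000 bp to either side of the member summits the variant was as frequent, in 13.6% and 14.8%.

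Motifs of housekeeping promoters were more frequent in members than in the other classes of summit, as counts with no test. Member windows are centred on summits and those of unbound pairs on the middle of the gap, so the middles of the 591 bound pairs are given as well. The DRE, TATCGATA, was in 52 members or 9.04% (6.83 to 11.7%), against 2.80% at other promoters, 0.243% away from start sites, 9.30% at middles of unbound pairs and 6.45% at all start sites. At the middles of bound pairs it was in 5.92% (4.16 to 8.14%), against 9.30% (8.08 to 10.6%) at those of unbound pairs. Among members recovered in both replicates 1 and 3 the share was 4.48%, in both replicates 1 and 2 it was 4.86%, and in both replicates 2 and 3 it was 9.98%. The BEAF-32 core CGATA, which lies within the DRE, was in 42.4%, against 27.1% at other promoters, 18.9% away from start sites, 42.7% at unbound pairs and 37.1% at start sites. Middles of bound pairs held it in 36.4% (32.5 to 40.4%), against 42.7% (40.5 to 44.8%) for unbound pairs. The Motif 1 core GGTCACAC was in 22 members or 3.83%, against 1.36% at other promoters, 0.273% away from start sites, 6.02% at unbound pairs and 5.68% at start sites, and 3.21% of the middles of bound pairs held it. Core promoter motif 7, CAGCNCTA, was in 4.87% of members, against 2.12% at other promoters, 2.26% at unbound pairs and 2.53% at start sites, and 3.55% (2.21 to 5.38%) of the middles of bound pairs held it. Motif 6, GTATNTTT, was in 12.2% of members against 13.2% at unbound pairs and 9.26% at start sites, and the E-box CAGCTG in 11.5% against 13.2% and 13.4%.

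TATAAA was in 47.1% of members (43.0 to 51.3%), against 35.4% at other promoters, 36.4% away from start sites, 38.4% at unbound pairs and 26.9% at start sites. At middles of bound pairs it was in 44.5% (40.5 to 48.6%), an interval that just overlaps that of unbound pairs, 36.3 to 40.6%. It was in 14.3% and 13.7% of the windows 1000 bp to either side. GAGAG, the core of GAGA factor sites, was in 13.4% of members, against 26.6% at other promoters, 23.4% away from start sites, 14.5% at unbound pairs and 25% at start sites. The Initiator letters TCAGTT were in 8.87%, against 15.2% at unbound pairs and 21.9% at start sites, and the Zelda letters CAGGTA in 3.48%, against 3.18% and 4.26%. Of the 575 members, 43 or 7.48% had none of the 12 motifs, against 13.7% at other promoters. By recovery, 17.3% of the 52 members with a DRE were found in replicate 1, against 29.6% of those without. At other promoters the shares were 18.2% and 44.1%, so this was not particular to members. Away from start sites they were 87.5%, of only 8 summits with a DRE, and 56.1%. Members with a DRE also had a lower median signal, 314 against 344.

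**Figure D5:**
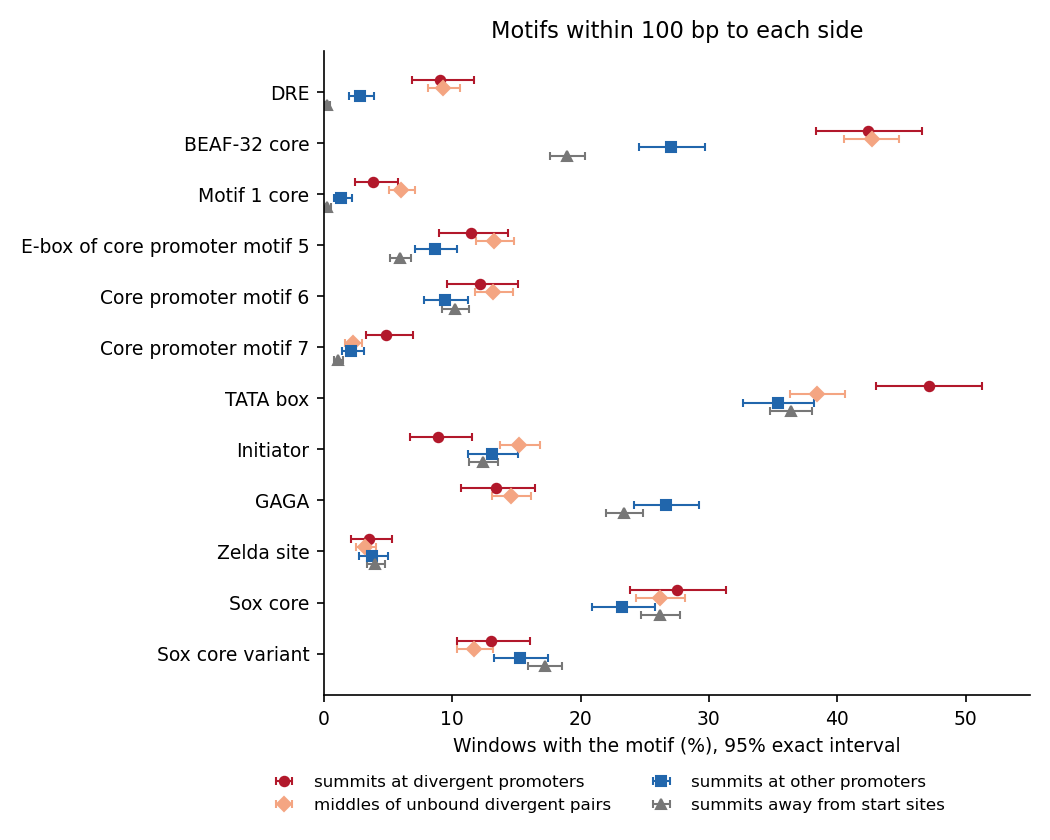
Share of 201-bp windows with each of 12 motifs (x axis, %, 95% exact intervals) around summits at divergent promoters, at middles of divergent pairs without an IDR summit, around summits at other promoters and around summits away from start sites. Around summits, DRE and BEAF-32 core stood at 9.04 and 42.4% in members, against 2.80 and 27.1% at other promoters; unbound pairs are read at the middle of the gap, so their windows are placed differently.

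Lists of genes were read against the background that 22.1% of all genes in divergent pairs had an IDR summit at the pair. For cytoplasmic ribosomal proteins 33 of the 55 genes in divergent pairs were bound. The list of 93 was matched by symbol and holds a few related genes such as RpL22-like and bip1. Among the highest were RpS27/Nup37 with a signal of 1249, Ripalpha/RpL7 with 928 and RpL28/eIF1 with 821. Of the 33, 5 were recovered in replicate 1, 32 in replicate 2 and 29 in replicate 3. Over all members the shares were 28.5% in replicate 1, 84.7% in replicate 2 and 77.2% in replicate 3. RpS27 was among the 5, with rank 38, and RpL7 and RpL28 had no match in that list. Ribosomal protein genes outside divergent pairs also had summits often, 20 of 38, where 9.18% of all genes outside such pairs did.

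Of the mitochondrial ribosomal proteins, 18 of the 58 genes in divergent pairs had a summit there. Of the 15 others 0 had one within 500 bp of a start, where 9.18% of all genes outside such pairs did. With so few genes, 0 of 15 says little. Besides mRpS10 and mRpS23, the highest were mRpL23/CG9004 with a signal of 1540, rank 42 in replicate 1, and mRpL24/betaggt-I with 793. Of the 18 genes, 10 were recovered in replicate 1, 13 in replicate 2 and 11 in replicate 3. The shares over all members were 28.5%, 84.7% and 77.2%. For the respiratory chain and ATP synthase 10 of 45 were bound, or 22.2%, with ND-ASHI/Fum1 highest at 737. Of aminoacyl-tRNA synthetases 7 of 23 were bound, led by Patsas/ThrRS with 516 and SerRS/CG17260 with 507, and of translation factors 4 of 28, led by eIF4EHP.

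Among regulators of chromatin and transcription, 7 of 13 genes of insulator and architectural proteins in divergent pairs were bound: Chro, Cp190, Dref, Elba2, M1BP, insv and pzg. Elba2 and insv share 1 summit, so the 7 genes stand for 6 summits. That list also holds Zw10 and Su(var)2-HP2, which are not insulator proteins. DREF and M1BP are the proteins known for the DRE and Motif 1. Their own summits, at Dref/RpL13 and M1BP/CG8202, had signals of 683 and 810, and M1BP ranked 396 in replicate 1 while Dref had no match there. Chromatin regulators were bound in 8 of 28 cases, with the SWI/SNF ATPase brm (brm/Arl1) at 1304, the histone methyltransferase E(z) (E(z)/Cnep1r2) at 967 and pont (Sirt6/pont) at 849, all 3 with a match in replicate 1. Of the 8, 4 were recovered in replicate 1, beside 28.5% of all members. For Mediator and TFIID 10 of 32 were bound, led by CG12321/MED17 with 645 and Taf2/CalpB with 593.

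For the lists nearest to the known roles of D, all protein-coding genes give the background: 36.2% are in divergent pairs, and 9.18% of the others have a summit within 500 bp of a start. Of 42 neuroectoderm and midline factors only 2 are in divergent pairs, and neither had a summit there, while 7 of the other 40 had one within 500 bp of a start. None of 8 Sox family genes is in such a pair, and 4 of them had a summit at a start. Of the 22 matched Notch pathway genes 8 are in divergent pairs, and 2 of these were bound, E(spl)mdelta-HLH, a bHLH repressor, with a signal of 859 and aph-1, a subunit of gamma-secretase, with 837.5. Neither had a match in replicate 1, where 29.4% of all members had one in the whole list. Of the other 14 Notch pathway genes, 8 had a summit within 500 bp of a start.

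The share of bound pairs differed between arms. It was 15.4% of 403 pairs on X (12 to 19.3%), 23.6% of 509 on 2L, 17.5% of 543 on 2R, 27.0% of 518 on 3L and 25.5% of 683 on 3R. On 3R, 21 of the 174 bound pairs come from the 1 summit at the pre-mod(mdg4) genes, so they are not independent. On chromosome 4, 0 of 11 pairs were bound, which allows a share of up to 28.5%. Recovery in replicate 1 also varied, from 19.0% of members on 2R to 39.4% on 3R. Replicate 2 recovered 82.6 to 88.3% over the 5 arms.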

How the data were processed

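Peak lists of dm6 were used: 3 replicate lists, the pooled list and the IDR list. Per the deposited file lists, peaks were called against a control alignment on each replicate and on all together. The names of the aligner and peak caller and the IDR cutoff were not given in the sources used here. Column 7 of each deposited list holds a signal value, the authors' own height of each peak, on an unstated scale. It was used to rank and describe peaks within a list. Read depth was not analysed here. Lists of dm3 were not used here.

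Start sites are those of protein-coding transcripts in Ensembl release 115. Sequence was read from Release 6 of RefSeq. For each summit the pair with the smallest gap was described. A summit was recovered when a replicate had one within 200 bp among its highest 5047. Intervals are exact (Clopper-Pearson) 95% binomial intervals and cover counting error only. The exact sign-flip permutation test over 3 replicates was two-sided. The scripts were tested on simulated data.

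Named pairs were the 15 highest, the 10 best in all replicates, the 10 highest without a match in replicate 1, those of extreme gap and the 4 highest of each list. Some of these are not reported here. Members, motifs and lists were chosen with earlier results of these data known. The tools were scipy 1.17.1, pandas 2.3.3, numpy 2.4.6 and matplotlib 3.10.9 under Python 3.11.15.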

Additional observations from a re-analysis of the deposited data

How the results depend on the processing

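The number of members was 347 with 250 bp to each start and 700 with 1000 bp. It was 324 in the upper 50% of IDR peaks by signal and 126 among those recovered in all 3 replicates. Leaving out 1 replicate and asking for recovery in both others gave 134 to 401, with 401 for replicate 1 left out. The share of pairs with a summit was 26.3% with gaps up to 500 bp, 14.4% with 250 bp to each start, 13.1% in the upper 50%, 5.55% for summits recovered in all 3 replicates and 5.85 to 15.6% with 1 replicate left out. The share of members recovered in all replicates was 28.2% against whole lists, 37.0% in the upper 50% and 23.3 to 69.7% with 1 replicate left out, the highest without replicate 1. The share between the starts, which the rule fixes in part, was 72.5 to 76.8% under its 7 alternatives. The mean recovery difference from other promoters ran from -12.3 to -5.52 points under its 7 alternatives, with -5.52 and a positive replicate 2 for whole lists. The mean percentile difference ran from -1.62 without replicate 1 to -0.027 without replicate 3. The DRE share moved to 4.35% with 50 bp and 20.9% with 250 bp to each side of the summit, to 4.76% among members recovered in all 3 replicates and to 4.48 to 9.98% with 1 replicate left out. No paired analysis was possible because there is no second group of samples; classes of regions were compared within each replicate. With 3 replicates the tests could not go below 0.25, so they say nothing on stability.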

Other observations

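Among other lists of general genes the bound share of those in divergent pairs ran from 15.4% to 30.8%, beside 22.1% of all such genes. For splicing factors 7 of 27 genes were bound, led by U2af50/PIG-Q with a signal of 899.5 and Sf3b6/Tnpo with 423. For RNA polymerase subunits 5 of 19 were bound, led by CG10584/Polr3E with 934 and 140up/Polr2B with 640. For the proteasome 4 of 26 were bound, with Hat1/Rpn5 highest at 457. For DNA replication 4 of 23 were bound, of which RPA1 and Mcm2 share 1 summit with a signal of 432, and RnrS/CG34231 was highest at 830. For cell cycle regulators 4 of 13 were bound, led by Cdk1/mRpS7 with 390 and Bub3/Cap-D2 with 315. None of the 4 was recovered in replicate 1, where 28.5% of all members were.

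Of the members, 44.7% had another IDR summit within 5000 bp, against 54.2% at other promoters and 62.3% away from start sites. A start site of a non-coding gene lay within 500 bp of 14 members, or 2.43%, against 6.62% at other promoters.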
